A study of Mus musculus with 6 samples.

Results

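The genes described here are the stress kinase gene Sgk1 and 7 genes grouped with it as a glucocorticoid response set: Fkbp5, Tsc22d3, Arl4d, Plekhf1, Errfi1, Cdkn1a and Tmem252. These 8 of 32285 measured genes were chosen by their lower levels in old than in young sections of the same data set. Their old against young values are therefore a description and are given without p-values, and so are their middle against young and old against middle values and the comparison of the age change between regions, which share young or old sections with that choice. Which genes passed a threshold is stated for these comparisons as part of that description and not as support. Tests with p-values are given for the place of expression, which the choice by age did not use directly. The study measured gene expression with Visium, a method in which thin tissue is laid over an array of barcoded spots, each of which captures the polyadenylated RNA of the several cells above it. Coronal brain sections came from male C57BL/6J mice without any transgene or treatment named in the labels, in a young group of 6 months, a middle group of 18 months and an old group of 21 months. Each group had 2 sections from 2 animals. The labels do not tie each section to its own animal, so p-values measure the spread between sections only. Both young sections, middle section 1 and old section 1 lay on 1 slide, and middle section 2 and old section 2 lay on another.

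Glucocorticoids are adrenal steroids whose blood level follows a daily rhythm and climbs under stress. They bind the glucocorticoid receptor, encoded by Nr3c1, and with higher affinity the mineralocorticoid receptor, encoded by Nr3c2, both of which move to the nucleus and bind DNA. Target genes include kinases, transcriptional repressors and proteins that restrain the receptor itself. In white matter, SGK1 is best known as a kinase of oligodendrocytes, the cells that make myelin, which raise it under stress hormones. Several of these genes also answer other signals: Cdkn1a is the classical target of p53, and Errfi1 and Arl4d can respond to growth factors and cyclic AMP.

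The RefSeq promoter table (GRCm38.p6) held windows for all 8 genes, 17 in all, of which 250 bases before each start were searched on both strands. An inverted repeat of the glucocorticoid receptor hexamer, AGAACA and TGTTCT with 3 bases between them, was present in 3 of 32851 windows (0.00913%), and 1 of these was an Sgk1 window. The single hexamer TGTTCT, which also forms part of that repeat, was found in 3 of the 6 Sgk1 windows and in a Tsc22d3 window, against 16.1% of all windows. The cyclic AMP response element TGACGTCA was found in windows of Arl4d and Errfi1, against 1.55% of all windows. No window of the 8 genes held an exact match to the p53 element (0.00913% of all windows) or to the heat shock element (0.466%). No mismatched base was allowed, so near matches were not counted. A Cdkn1a window holds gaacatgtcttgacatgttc, which resembles the p53 element without matching it exactly. The windows below are shown because they hold the rarer matches, with every match to a searched motif in capitals.
Sgk1, chr10:21993640-21993889, plus strand: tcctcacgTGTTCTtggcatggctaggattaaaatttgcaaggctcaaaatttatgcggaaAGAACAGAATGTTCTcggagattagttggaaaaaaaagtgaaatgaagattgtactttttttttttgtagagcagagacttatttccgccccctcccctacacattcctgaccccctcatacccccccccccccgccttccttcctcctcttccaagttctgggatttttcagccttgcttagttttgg
Arl4d, chr11:101665291-101665540, plus strand: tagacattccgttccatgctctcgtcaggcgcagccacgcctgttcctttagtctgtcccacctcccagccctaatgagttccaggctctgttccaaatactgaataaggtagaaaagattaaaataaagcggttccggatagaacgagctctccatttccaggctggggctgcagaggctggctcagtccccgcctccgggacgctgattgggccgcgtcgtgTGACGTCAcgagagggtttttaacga
Errfi1, chr4:150854820-150855069, plus strand: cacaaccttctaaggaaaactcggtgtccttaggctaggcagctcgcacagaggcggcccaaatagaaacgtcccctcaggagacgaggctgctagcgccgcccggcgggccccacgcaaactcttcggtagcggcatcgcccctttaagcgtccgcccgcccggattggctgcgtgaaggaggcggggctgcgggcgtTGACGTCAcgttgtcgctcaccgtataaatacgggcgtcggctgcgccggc
In the Sgk1 window the inverted repeat is the second run of capitals and ends 175 bases before the start, while the first run is a single hexamer. In GENCODE M21 this window lies inside the Sgk1 gene and overlaps no exon, so it is intronic to the longer transcripts. The cyclic AMP element ends 19 bases before the Arl4d start, in sequence outside any annotated gene. It ends 44 bases before the Errfi1 start, inside the Errfi1 gene body, and 124 of the 250 bases overlap an annotated exon. Sgk1 has 6 windows, Tsc22d3 has 3, and Errfi1 and Cdkn1a have 2 each, and the 3' counts used here do not tell which start was used. A match describes these letters and not the binding of a factor. The Errfi1 gene overlaps the antisense gene 1700045H11Rik without shared exon bases, and Cdkn1a shares 273 exon bases with AC167363.2 on the opposite strand, so that without strand their reads could be mixed.

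The 6 sections held between 60938938 and 77557934 unique molecular identifiers (UMIs, each marking 1 captured RNA molecule) in 16741 spots. The median per spot was 30093 and 26306 for young, 26099 and 25905 for middle and 21766 and 20370 for old sections. Across the sections 3389 spot barcodes occurred, 1920 of them in all 6, as the same printed barcode set is used on every capture area. Spots were grouped by transcripts into 25 clusters without use of the 8 genes or of their pathway lists, and 18 clusters were named after 9 regions from fixed markers, which left 2871 spots unnamed. The clusters named hypothalamus and meninges also held leading genes of other areas, such as Spp1 and Vip, and young section 1 had 65 hippocampal spots against 186 to 294 in the others. Levels are CPM (counts scaled to a common UMI total) with TMM normalization unless stated otherwise. Since a spot mixes cells, fewer cells of a type and less RNA per cell cannot be told apart.

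Sgk1, on chromosome 10 (GRCm38, 21882184 to 21999903, plus strand), encodes serum- and glucocorticoid-regulated kinase 1, which controls ion channels, transporters and FOXO transcription factors. It stood at 144 and 175 CPM in young, 61.0 and 76.1 CPM in middle and 67.0 and 69.7 CPM in old sections. Both young sections lay above all 4 older ones, and the middle and old sections overlapped. The mean was 159 ± 21.9 (SD, n = 2) in young, 68.5 ± 10.7 (n = 2) in middle and 68.3 ± 1.90 (n = 2) in old sections. The log2 fold change was -1.21 (SE 0.13) for old against young and -1.21 (SE 0.13) for middle against young. On the slide that held sections of all 3 ages, old section 1 differed from the young mean by -1.25 on the log2 scale, and on the other slide old section 2 differed from middle section 2 by -0.13.

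Fkbp5 and Tsc22d3 are widely used readouts of the receptor. Fkbp5 encodes FKBP51, a co-chaperone that lowers the receptor's affinity for hormone, and Tsc22d3 encodes GILZ, a leucine zipper protein that mediates anti-inflammatory actions. Fkbp5 stood at 15.3 and 17.4 CPM in young, 16.0 and 15.4 CPM in middle and 14.7 and 14.8 CPM in old sections. The Fkbp5 values of young and middle sections overlapped, and its log2 fold change for old against young was -0.15 (SE 0.08). Tsc22d3 stood at 86.6 and 107 CPM in young, 78.4 and 77.1 CPM in middle and 73.8 and 75.8 CPM in old sections. Both young sections lay above the older ones for Tsc22d3, with a log2 fold change of -0.36 (SE 0.09). Neither gene passed an adjusted p of 0.05 in edgeR in whole sections.

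Arl4d encodes a small GTPase of the ARF family that acts at the plasma membrane on actin. It stood at 33.8 and 39.2 CPM in young, 23.1 and 27.8 CPM in middle and 25.5 and 24.6 CPM in old sections (log2 fold change -0.54, SE 0.10). Errfi1 encodes MIG6, a feedback inhibitor of the epidermal growth factor receptor. Errfi1 stood at 29.4 and 33.4 CPM in young, 23.3 and 22.6 CPM in middle and 23.6 and 23.0 CPM in old sections (log2 fold change -0.43, SE 0.07). For both genes the young sections lay above all older ones, and the middle and old sections overlapped.

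Plekhf1 encodes phafin 1, an endosomal and lysosomal protein that binds phosphoinositides. It stood at 8.66 and 9.002 CPM in young, 4.88 and 5.81 CPM in middle and 4.82 and 5.95 CPM in old sections (log2 fold change -0.71, SE 0.13). Cdkn1a encodes p21, the inhibitor of cyclin-dependent kinases that p53 and glucocorticoids both induce and that often marks senescent cells. Cdkn1a stood at 16.0 and 20.7 CPM in young, 10.5 and 12.2 CPM in middle and 13.1 and 12.2 CPM in old sections (log2 fold change -0.53, SE 0.13). Its higher level in young sections is the order by which it was chosen, and senescence was not tested. Tmem252, a little studied membrane protein gene, was the lowest of the 8 at 5.64 and 7.40 CPM in young, 1.34 and 1.98 CPM in middle and 1.71 and 2.13 CPM in old sections. Its whole-section sums were 418 and 574 UMIs in young and 100 to 151 UMIs in older sections, and its log2 fold change was -1.76 (SE 0.22). The remaining genes lie on chromosomes 17 (Fkbp5 and Cdkn1a), X (Tsc22d3), 11 (Arl4d), 7 (Plekhf1), 4 (Errfi1) and 19 (Tmem252).

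Of the 8 genes, 2 passed an adjusted p of 0.05 in edgeR for old against young, Sgk1 and Tmem252, both lower in old, where 0.164% of all 17673 genes tested passed in either direction. For middle against young 1 of 8 passed, Tmem252, where 0.0679% of all genes did. Nothing is read from these counts, because old against young chose the genes and middle against young shares the young sections. Both young sections lay above all 4 older sections for 7 of the 8 genes, all but Fkbp5, and for 12.7% of all genes. The old against young count was 7 with DESeq2, which called 191 of all genes where edgeR called 29, and 0 without old section 1, without old section 2 or with the slide as a block, and 1 without middle section 1, middle section 2 or young section 2. The middle against young count was 6 with DESeq2, which called 70 of all genes where edgeR called 12, 5 without young section 1 and 0 without any single middle or old section or without young section 2. In whole sections young section 2 was higher than young section 1 in all 8 genes.

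**Figure D1:**
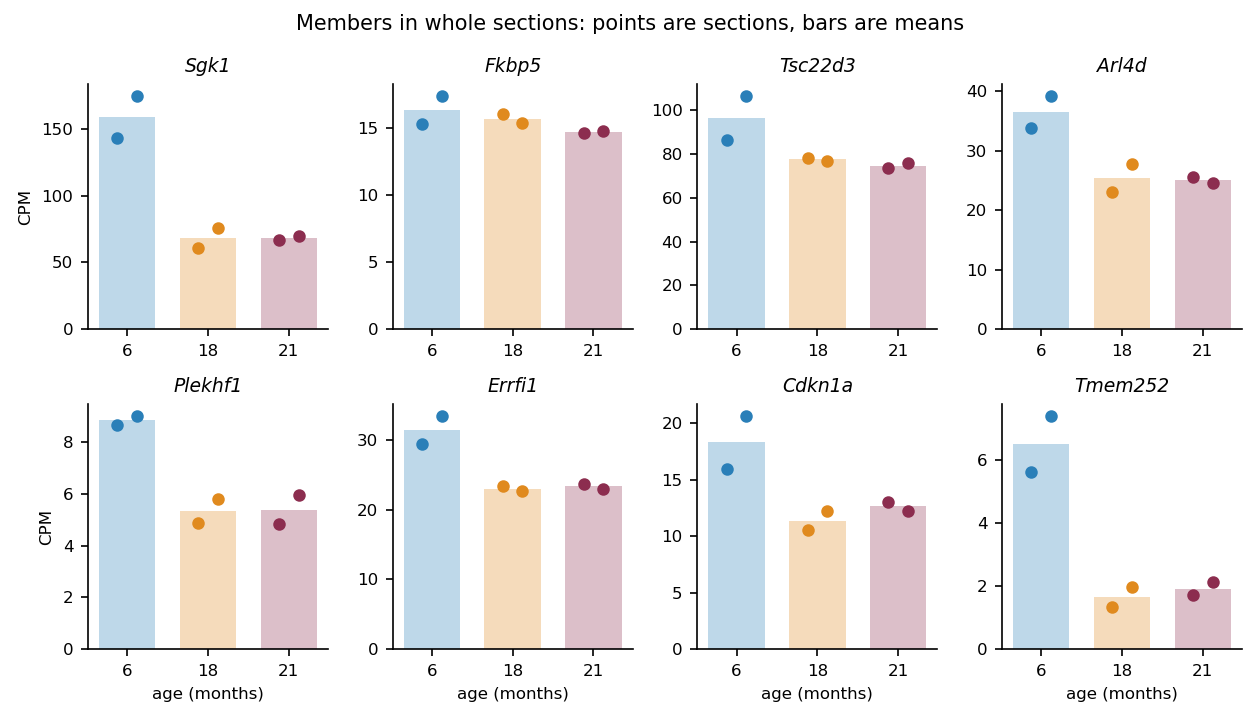
CPM of the 8 genes in whole sections (y axis, each panel with its own scale from 0) against age in months (x axis). Points are the 2 sections of an age and bars are their means; the young points lie above all older points in each panel except that of Fkbp5.

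Old against middle shares the old sections with the contrast that chose the genes and is likewise a description. None of the 8 genes passed in edgeR, and 0 of the 8 had an unadjusted p under 0.05. Log2 fold changes ran from -0.09 for Fkbp5 to 0.21 for Tmem252. The interval (95%) of the Sgk1 difference ran from -0.32 to 0.31 around -0.00. The intervals for Tsc22d3 (-0.26 to 0.16), Arl4d (-0.26 to 0.23) and Errfi1 (-0.14 to 0.19) were of like width, while that of Tmem252 ran from -0.34 to 0.76. Without middle section 2 the largest difference among the 8 genes was 0.52 in size, and none passed. Of all genes 0% passed in this comparison with edgeR and 0 genes with DESeq2, while 361 had an unadjusted p under 0.05.

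White matter, the myelinated fibre tracts, held between 219 and 307 spots per section and 2988203 to 3602395 UMIs. Sgk1 stood there at 639 and 1087 CPM in young, 128 and 194 CPM in middle and 167 and 199 CPM in old sections. The mean of the young sections was 4.71 times that of the old and 5.35 times that of the middle sections, although the young sections themselves differed by 448 CPM. White matter held 18.6% and 26.0% of all Sgk1 UMIs of the young sections from 4.17% and 4.26% of their UMIs. In the older sections it held 10.0% to 16.2% of the Sgk1 UMIs from 3.97% to 5.63% of all UMIs.

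Arl4d was also highest in young white matter, with 99.4 and 153 CPM in young, 46.8 and 57.0 CPM in middle and 52.6 and 44.3 CPM in old sections. Plekhf1 stood at 60.7 and 70.7 CPM in young sections and at 28.3 to 30.4 CPM in all 4 older sections, a tight group. Errfi1 stood at 54.2 and 66.4 CPM in young and 31.8 to 37.1 CPM in older sections. Cdkn1a rested on 43 and 68 UMIs in young and 19 to 24 UMIs in older sections, that is 13.9 and 21.0 CPM against 5.35 to 7.89 CPM. Tmem252 rested on 41 and 48 UMIs in young and 4 to 16 UMIs in older sections, so that its older levels of 1.31 to 4.55 CPM carry a large counting error. Tsc22d3 stood at 128 and 162 CPM in young and 97.0 to 119 CPM in older sections. Fkbp5 was the exception at 5.81 and 8.65 CPM in young and 6.20 to 9.77 CPM in older sections, where the ages overlapped.

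For old against young in white matter 6 of the 8 genes passed in edgeR, all lower in old (Tsc22d3, Arl4d, Plekhf1, Errfi1, Cdkn1a and Tmem252), where 2.29% of 12513 genes passed in either direction. The genes were chosen as lower in old than in young, so nothing is read from the counts here or their direction. The log2 fold changes ran from -0.45 (SE 0.11) for Tsc22d3 to -2.18 (SE 0.37) for Tmem252. The Tmem252 value was -1.61 without old section 1 and -3.37 without old section 2, and it passed in both. Sgk1 had the largest change, -2.22 (SE 0.40), and did not pass, and Fkbp5 had 0.22 (SE 0.32). For middle against young 5 of 8 passed, the same genes without Tsc22d3, where 3.56% of all genes passed, and Sgk1 had -2.41 (SE 0.40). Both young sections lay above all older sections for 7 of the 8 genes, all but Fkbp5, and for 12.9% of all genes tested in white matter. Sgk1 passed for old against young with DESeq2, with the replicate block and without young section 1. The count of 6 fell to 3 without old section 2 or without young section 2, and the middle against young count of 5 fell to 2 without middle section 1 and to 1 without middle section 2.

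The makeup of the white matter spots also differed between ages. Summed levels of 10 oligodendrocyte markers were 55353 and 57552 CPM in young, 40979 to 48204 CPM in middle and 46235 to 48975 CPM in old sections, and of these markers 1 passed for old against young (Mal, -0.58, SE 0.10) and 6 for middle against young (Mal, Cldn11, Mag, Cnp, Mog and Opalin), all lower. Summed levels of 8 microglial markers were 961 and 1141 CPM in young, 1336 to 1500 CPM in middle and 1948 to 2284 CPM in old sections, and the complement genes C1qb (1.22, SE 0.17) and C1qc (1.13, SE 0.11) were among those that rose for old against young. Summed levels of 6 neuronal markers were 710 and 785 CPM in young, 1085 to 1199 CPM in middle and 767 to 887 CPM in old sections. Of these, Gad1 (1.05, SE 0.19), Gad2 (0.90, SE 0.12) and Snap25 (0.64, SE 0.10) rose for middle against young, and Gad2 (-0.71, SE 0.12) and Snap25 (-0.46, SE 0.10) fell for old against middle. None of the markers of these 3 lists was at 0 in white matter. Their part in the changes of the 8 genes was not tested.

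**Figure D2:**
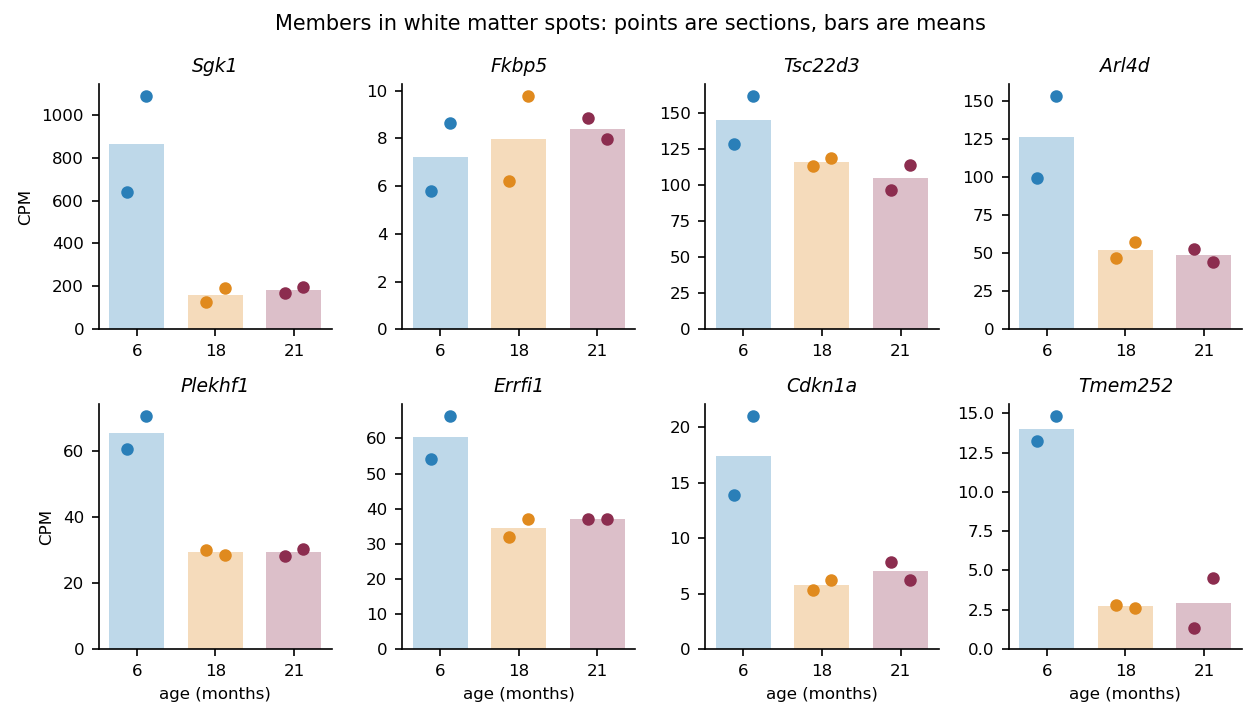
CPM of the 8 genes in white matter spots (y axis, each panel with its own scale from 0) against age in months (x axis). Points are the 2 sections of an age and bars are their means; Sgk1 stands at 639 and 1087 CPM at 6 months and between 128 and 199 CPM at the later ages.

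Between old and middle white matter 0 of the 8 genes passed in edgeR, 0 had an unadjusted p under 0.05, and 0 passed with DESeq2, where 0.472% of all genes passed in edgeR. Log2 fold changes ran from -0.14 for Tsc22d3 to 0.29 for Cdkn1a. The log2 fold change of Plekhf1 was -0.00 with an interval of -0.33 to 0.33, whereas that of Sgk1 was 0.19 with an interval of -1.05 to 1.42 that leaves room for a change in either direction.

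The old against young change in white matter was set against that in all other spots of the same sections as an interaction term. Arl4d alone of the 8 passed, with a difference of -0.92 (SE 0.13) on the log2 scale, where 1.96% of 17068 genes passed. It passed under each of the 13 alternatives run. Sgk1 had a larger difference of -1.15 (SE 0.29) and did not pass, although it passed with DESeq2, at a finer clustering, without young section 1 and without young section 2. Cdkn1a had -0.80 (SE 0.27), Plekhf1 -0.54 (SE 0.20), Tmem252 -0.49 (SE 0.42), Errfi1 -0.28 (SE 0.15), Tsc22d3 -0.09 (SE 0.10) and Fkbp5 0.37 (SE 0.31). The term uses the young sections that chose the genes and is given as a description.

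Where in the tissue the genes are expressed is a measure that the choice by age did not use directly. For each section the 10% of spots with the largest share of UMIs from 10 myelin genes was compared with its other spots, with the section as a block in edgeR. All 8 genes passed, 6 higher and 2 lower in myelin-rich spots, in a comparison where 74.3% of 15930 genes passed, so that the sizes tell more than the calls. Plekhf1 had the largest difference, 3.28 (SE 0.10, adjusted p 2.22e-12 in edgeR), which 1.09% of genes reached or exceeded. It stood at 62.4 and 79.5 CPM in myelin-rich spots of young sections against 6.24 and 6.22 CPM elsewhere, and at 28.4 to 33.6 CPM against 3.21 to 4.25 CPM in older sections. Myelin-rich spots were higher in 6 of 6 sections, and they held 27.4% to 36.4% of its UMIs.

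Sgk1 was higher in myelin-rich spots by 2.06 (SE 0.30, adjusted p 0.00111 in edgeR), a difference that 4.43% of genes reached. Its ratio was not even over the ages. On the log2 scale it was 2.59 and 3.20 in young, 1.22 and 1.60 in middle and 1.44 and 1.83 in old sections. The pooled Sgk1 difference thus draws in part on the young levels that chose the gene, as does that of Arl4d. Arl4d was higher by 1.53 (SE 0.18, adjusted p 0.000117 in edgeR), with log2 ratios of 1.88 and 2.25 in young and 0.98 to 1.23 in older sections. Errfi1 was higher by 0.90 (SE 0.08), Tmem252 by 0.86 (SE 0.18) and Tsc22d3 by 0.70 (SE 0.05), and each was higher in 6 of 6 sections. Fkbp5 was lower by -0.92 (SE 0.14, adjusted p 5.13e-05 in edgeR) in 6 of 6 sections, with 5.46 to 11.2 CPM in myelin-rich spots against 14.4 to 17.4 CPM elsewhere. Cdkn1a was lower by -0.47 (SE 0.13, adjusted p 0.00427 in edgeR) in 5 of 6 sections, and young section 2 had a ratio of 0.06.

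Over 10 equal bins of a section's spots, ordered from the least to the most myelin, Sgk1 went from 75.2 to 651 CPM (no TMM scaling) in young section 1 and from 70.9 to 1146 CPM in young section 2. In the older sections it went from between 55.5 and 61.6 CPM in the lowest bin to between 125 and 212 CPM in the highest. In the lowest bin both young sections still lay above all older ones for Sgk1, with all levels within 19.7 CPM of each other. In the highest bin the lower young section stood 439 CPM above the highest older one. Plekhf1 went from 1.61 and 1.38 CPM to 57.7 and 75.1 CPM in young sections and from 0.94 to 1.56 CPM up to 28.2 to 33.4 CPM in older ones. Fkbp5 ran the other way, from 16.4 to 23.1 CPM in the lowest bin down to 5.04 to 11.1 CPM in the highest over all 6 sections.

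**Figure D3:**
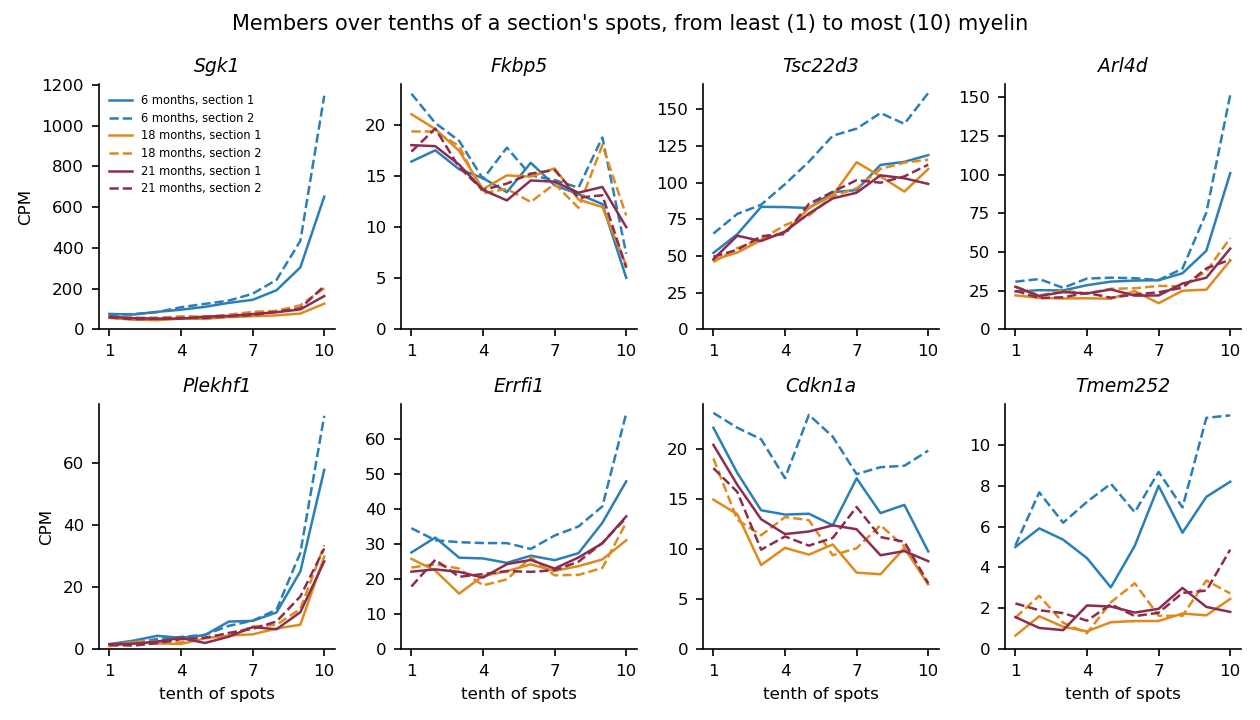
CPM (y axis, own scale per panel) of the 8 genes in 10 equal bins of each section's spots, from the least to the most myelin (x axis). Each line is 1 section, coloured by age; Sgk1, Arl4d and Plekhf1 climb in the last bins and do so most in the young sections, while Fkbp5 declines.

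By marker-named region, Sgk1 was highest in white matter (402 ± 384 CPM, SD over 6 sections) and in choroid plexus and ventricle (261 ± 121 CPM). These neighbours do not differ beyond their spread, and white matter lay first in 4 of 6 sections. Their means were 863 and 414 CPM in young sections and 172 and 185 CPM in older ones. The lead of white matter thus draws on the young levels that chose the gene. In choroid plexus and ventricle Sgk1 stood at 376 and 453 CPM in young and 172 to 194 CPM in older sections. Choroid plexus is the tissue that secretes cerebrospinal fluid, and these values are not those of choroid plexus alone. At a finer clustering (resolution 1.2) the clusters of this name held 234 spots led by Ccdc153 and Tmem212 and 70 spots with Kl and Folr1 among the leading genes. Striatum (118 ± 53.6 CPM), thalamus (105 ± 47.9 CPM) and hippocampal formation (95.3 ± 43.9 CPM) followed in this order of means. Striatum lay above thalamus in 6 of 6 sections and thalamus above hippocampal formation in 4 of 6. Meninges, hypothalamus, isocortex and amygdala and olfactory cortex lay at 53.4 to 72.3 CPM, and their order changed between sections. Both young sections lay above all older ones in each of the 9 regions and in each of the 24 clusters that held spots in every section. The share of all genes with this order was computed only for whole sections (12.7%) and white matter (12.9%). Sgk1 was chosen as high in young, so nothing is read from these counts. Among clusters without a region name, the one led by Ccn2, Cplx3 and Nxph3 had the highest Sgk1 level, 293 CPM as the young mean and 105 CPM as the mean of older sections (no TMM scaling).

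**Figure D4:**
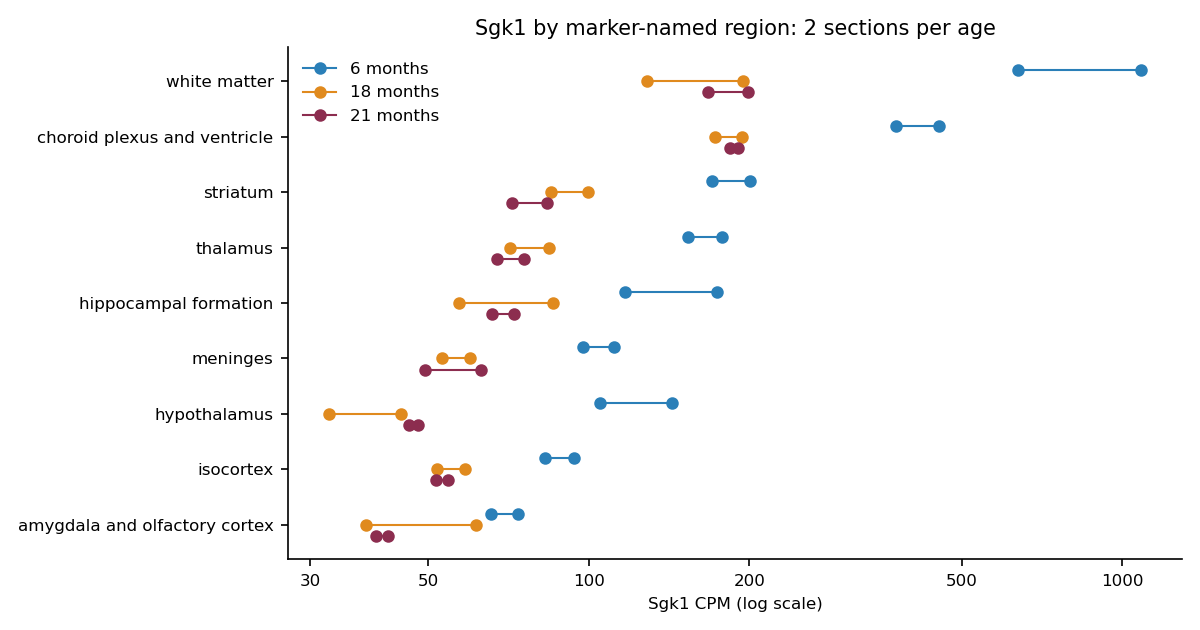
Sgk1 CPM (x axis, log scale) by marker-named region (y axis, in order of mean level). Points are sections joined per age; in each region both sections of 6 months lie to the right of the 4 older sections.

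Fkbp5 had another map. It was highest in hippocampal formation (27.4 ± 5.10 CPM), which ranked first in 5 of 6 sections, and in striatum (21.0 ± 1.73 CPM), and lowest in choroid plexus and ventricle (6.87 ± 3.33 CPM) and white matter (7.88 ± 1.57 CPM). The hippocampal cluster led by C1ql2, Lct and Dsp held its highest cluster level, 36.3 ± 4.69 CPM (no TMM scaling), though young section 1 had 6 spots there. Both young sections of Fkbp5 lay above the older ones in 1 of 24 clusters, for which the share over all genes was not computed. Tsc22d3 was highest in thalamus (146 ± 21.2 CPM) in 6 of 6 sections, followed by white matter (122 ± 21.9 CPM), and lowest in amygdala and olfactory cortex (39.5 ± 9.11 CPM). Its thalamic values of the ages overlapped, with 135 and 181 CPM in young and 126 to 161 CPM in older sections.

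Plekhf1 was highest in white matter (41.5 ± 19.0 CPM) in 6 of 6 sections and lowest in isocortex (2.08 ± 0.60 CPM). Arl4d was led by white matter in 3 sections and by striatum in 3. In striatum it stood at 54.7 and 74.1 CPM in young and 49.5 to 57.1 CPM in older sections, which overlapped. Errfi1 was highest in white matter (44.0 ± 13.4 CPM), which ranked first in 5 of 6 sections. Meninges (35.9 ± 21.0 CPM) and hippocampal formation (35.7 ± 6.60 CPM) followed. Meninges lay above hippocampal formation in 2 of 6 sections, and the means of the older sections were 22.5 and 31.7 CPM. In the meninges Errfi1 stood at 66.5 and 59.1 CPM in young and 20.6 to 24.8 CPM in older sections. Cdkn1a and Tmem252 were highest in meninges, at 24.9 ± 10.1 CPM and 10.97 ± 8.54 CPM. Tmem252 stood there at 20.8 and 23.1 CPM in young and 5.01 to 5.86 CPM in older sections, and Cdkn1a at 34.5 and 39.4 CPM in young and 12.9 to 24.5 CPM in older sections. At a finer clustering (resolution 1.2) the Tmem252 mean of the meninges was 19.8 CPM.

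Outside white matter few member calls were made for old against young in edgeR. All were lower in old, the direction by which the genes were chosen, so nothing is read from these counts. Sgk1 and Tmem252 passed in isocortex, where 0.0938% of genes did, and Sgk1, Errfi1 and Tmem252 passed in meninges (0.208% of genes). Sgk1 alone passed in thalamus (0.0434%), striatum (0.16%) and choroid plexus and ventricle (0.0435%), in the last of which 7 of the 8 genes were tested. None of the 8 passed in hypothalamus (0.0623% of genes; 5 had an unadjusted p under 0.05) or hippocampal formation (0% of genes; 4 had an unadjusted p under 0.05, and 522 of all genes did). None of the 6 tested passed in amygdala and olfactory cortex (0.037%; 1 had an unadjusted p under 0.05). DESeq2 called 1, 0 and 0 of them in these 3 regions. Where the Sgk1 log2 fold change was lowest in size, in isocortex, it was -0.73, and in hypothalamus it was -1.39 without passing. The Arl4d value in choroid plexus and ventricle, -1.67, did not pass either.

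**Figure D5:**
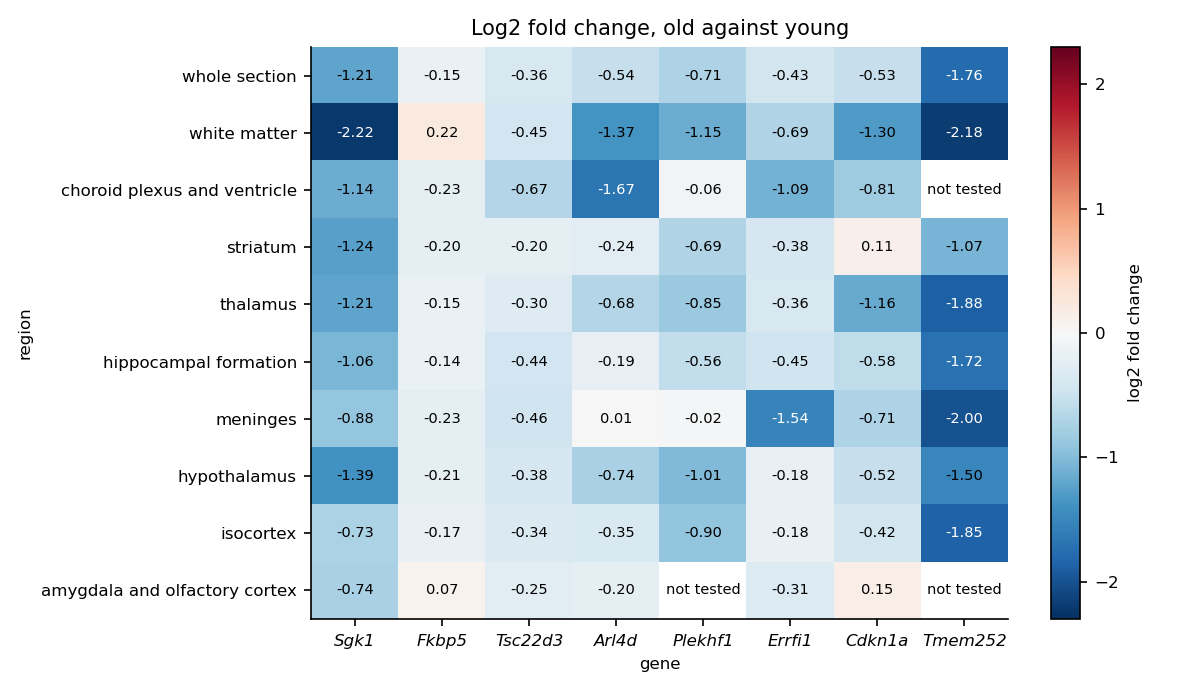
Log2 fold change of old against young sections (colour and printed value) for the 8 genes (x axis) in whole sections and in 9 regions (y axis). Of 77 values 5 lie above 0, none of them for Sgk1, and cells marked as not tested fell under the filter on low counts.

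Spots were next thinned to 10000 UMIs each so that depth could not set the share of spots with a UMI. At that depth 67.4% and 69.4% of spots held Sgk1 in young sections, 42.8% and 50.9% in middle and 46.3% and 48.2% in old sections. Unthinned shares were 92.8% and 93.0% in young and 68.6% to 79.3% in older sections. Between 130 and 350 shallower spots per section were left out. In thinned white matter spots 90% and 98.0% held at least 3 Sgk1 UMIs in young sections against 10.2% to 37.5% in older ones, after 114 of 264 and 156 of 307 spots were left out in young, 56 of 233 and 59 of 219 in middle and 149 of 277 and 114 of 283 in old sections. Thinned to 5000 UMIs, where 6 to 27 white matter spots per section were left out, the shares were 54.7% and 85.0% in young and 3.96% to 10.4% in older sections. Per 10000 UMIs, the lowest decile of Sgk1 over white matter spots was 2.34 and 4.87 in young sections, while the median of the older sections was 1.04 to 1.92. Most white matter spots of the older sections thus lay below nearly all those of the young ones. Fkbp5 was found in 13.2% and 14.9% of thinned spots in young and 13.3% to 14.2% in older sections. Cdkn1a was found in 13.6% and 17.5% of them in young and 7.96% to 11.02% in older sections.

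Further genes of the glucocorticoid response were taken from a list of 28, written with earlier results of these data known. In whole sections 22 of 28 had a negative log2 fold change for old against young, with a median of -0.12 against -0.00 over all genes tested, and 1 passed in edgeR. That gene was Nfkbia, the inhibitor of NF-kB, at 37.2 and 37.5 CPM in young and 19.6 to 21.2 CPM in older sections (log2 fold change -0.82, SE 0.05). For middle against young 27 of 28 had a negative value with a median of -0.20, and Nfkbia was again the gene that passed.

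In white matter 25 of the 28 were tested, and the list did not move one way. For old against young 4 fell in edgeR: Nfkbia (-1.56, SE 0.12), Ddit4, an inhibitor of mTORC1 (-1.19, SE 0.16), Tob2 (-0.68, SE 0.17) and the transcription factor gene Klf9 (-0.58, SE 0.11). Cebpd, a transcription factor of acute inflammation, rose by 0.62 (SE 0.16), from 32.9 and 32.4 CPM in young to 51.6 and 48.0 CPM in old sections, after 18.9 and 26.1 CPM in the middle ones. The list's median was 0.05, with 13 values above and 12 below 0. For middle against young 4 fell, Nfkbia, Ddit4, Tob2 and the arrestin-like gene Arrdc2 (-0.90, SE 0.19), and the median was -0.29. Both medians share the young sections and stand beside a median of 0.00 over all genes tested in each comparison.

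Of the receptors, Nr3c1 stood close across ages, while for Nr3c2 the young sections differed too widely to settle a change. Nr3c1 was at 79.2 and 74.5 CPM in young, 83.9 and 71.4 CPM in middle and 75.8 and 70.9 CPM in old sections, with a log2 fold change of -0.06 (SE 0.08) for old against young. Nr3c2 was at 20.1 and 33.1 CPM in young and 24.4 to 29.3 CPM in older sections (0.09, SE 0.26). In white matter Nr3c1 was at 109 and 108 CPM in young and 90.7 to 114 CPM in older sections. Of 16 tested genes for receptors, steroid enzymes, chaperones and cofactors, 0 passed in edgeR in whole sections for old against young, 2 had an unadjusted p under 0.05 and 1 passed with DESeq2. In white matter the co-chaperone gene Fkbp4 fell for middle against young (-0.38, SE 0.10), while for old against young 0 of 15 genes passed in edgeR (5 with an unadjusted p under 0.05, 0 with DESeq2).

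Among 15 paralogues, activators and substrates of SGK1, 0 passed in edgeR for old against young in whole sections, 2 had an unadjusted p under 0.05 and 0 passed with DESeq2. Ndrg1, whose product SGK1 phosphorylates, fell in white matter for middle against young (-0.35, SE 0.09), while for old against young 0 of 14 passed there in edgeR (2 with an unadjusted p under 0.05, 0 with DESeq2). Of 15 p53 genes 0 passed in whole sections for old against young (4 with an unadjusted p under 0.05, 0 with DESeq2). In white matter Btg2 (-1.37, SE 0.31) and Phlda3 (-0.37, SE 0.09) fell for middle against young, while for old against young 0 of 13 passed there in edgeR (3 with an unadjusted p under 0.05, 0 with DESeq2). Of 6 further CDK inhibitor genes 0 passed in whole sections for old against young (1 with an unadjusted p under 0.05, 0 with DESeq2). Their median was 0.06, and their values ran from -0.17 to 1.97. Of 10 paralogues of the other members and ERBB receptors 0 passed (2 with an unadjusted p under 0.05, 1 with DESeq2).

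Genes whose levels went most like those of Sgk1 were sought over 54 points, the 9 regions in 6 sections, with log2 CPM centred within each region, among 9588 genes. The points share sections, libraries and depth. Centring leaves only differences between sections within a region, which include the young excess by which the 8 genes were chosen. Genes high in young sections, the other members among them, can rank high through that choice alone, so the correlations are a description. The 5 highest were Hspa1a (Pearson r 0.92), Hspa1b (0.90), Dedd2 (0.88), Nfkbia (0.88) and Hsph1 (0.87). Hspa1a and Hspa1b encode near-identical inducible HSP70 proteins, so the split of UMIs between them is uncertain. Of the other 7 genes Arl4d ranked 8 (r 0.80), Cdkn1a 16 (0.75), Errfi1 17 (0.75), Tsc22d3 39 (0.65) and Fkbp5 2976 (0.13). Plekhf1 and Tmem252 lay under the mean of 10 CPM that the ranking required.

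Some heat shock genes were also higher in the young sections. Their list of 12 was written with earlier results of these data known, so nothing is read from the counts that passed. In whole sections 5 of 12 fell for old against young in edgeR, namely Hspa1a, Hspa1b, Dnajb1, Hspb1 and Hsph1, where 0.164% of all genes passed, and 4 of them, all but Hsph1, fell for middle against young, where 0.0679% did. The others did not pass, and the list's medians were -0.21 and -0.20. In white matter 3 passed as lower for old against young (Hsph1, Dnajb1 and Hspa1a), where 2.29% of all genes passed. For middle against young 5 did (these with Hspb1 and Cryab), where 3.56% of all genes passed. Hspa1b passed in neither, though it stood there at 153 and 219 CPM in young and 10.2 to 28.2 CPM in older sections. Hspa1a stood at 55.7 and 56.6 CPM in young and 15.3 to 18.2 CPM in older sections, and in white matter at 173 and 233 CPM in young and 11.7 to 22.0 CPM in older sections. The summed heat shock list stood at 3697 and 3702 CPM in young and 3224 to 3429 CPM in older sections, and none of its 12 genes was at 0. Of 12 immediate early genes 0 passed in whole sections for old against young (4 with an unadjusted p under 0.05, 1 with DESeq2), and their sum was 976 and 1196 CPM in young and 805 to 998 CPM in older sections. In white matter Jun, a subunit of AP-1, fell for middle against young (-0.46, SE 0.12), and 0 of 9 passed for old against young in edgeR (3 with an unadjusted p under 0.05, 0 with DESeq2). Of 14 clock genes 0 passed (8 with an unadjusted p under 0.05, 1 with DESeq2), and their sum was 673 and 710 CPM in young and 691 to 738 CPM in older sections. Its most abundant genes, Tef and Hlf, had log2 fold changes of 0.05 (SE 0.05) and -0.10 (SE 0.11) for old against young. The part of heat shock, neuronal activity or time of day in the values of the 8 genes was not tested.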

How the data were processed

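The deposited files hold UMI counts per gene and spot for each section, made by the authors per the file headers with Space Ranger 1.3.1, on mm10 (GRCm38) per the submitters' processing notes. The annotation and spot filter are not given in the sources used here, and other columns hold barcodes and gene names as deposited. The 8 genes and all lists were chosen with earlier results of these data known.

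Spots under 500 UMIs were removed (2 spots). The others were clustered on 2000 variable genes, 30 principal components and 20 neighbours (leidenalg 0.10.2, resolution 0.8). A cluster took a region's name with at least 3 of its markers among its top 50 genes, at least 1 among its top 10 and 2 times as many as the next region. UMI counts were summed per section or region and tested with edgeR 4.0.16 (R 4.3.3; TMM, filterByExpr, robust quasi-likelihood test, two-sided, Benjamini-Hochberg over all genes tested, threshold 0.05), with age group as the term and all 6 sections in each fit. A gene passed when its adjusted p was under 0.05. DESeq2 1.42.0 was an alternative. Tested on simulated counts in which 200 genes had a log2 change of 1, edgeR recovered 94.2% of these in whole sections (17641 genes), 79.6% in white matter (12478 genes) and 44.3% in the interaction (16981 genes). Every simulated gene had the same dispersion, and only genes above a count floor were changed. Genes that vary more between sections or have fewer counts would be recovered less often. Totals of 60938938 to 77557934 UMIs per section set the counting precision. Named were all 8 genes, genes of the pathway and marker lists that passed in whole sections or white matter against young, both receptors, the 5 genes most like Sgk1 and, in marker, heat shock, immediate early and clock lists with no gene that passed, the 2 of largest mean CPM. Part of the microglial marker result is not reported here.

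Marker lists of other cell types gave further values. In white matter for old against young, the astrocyte gene Aldh1l1 (0.69, SE 0.14) and the mural gene Tagln (2.05, SE 0.45) passed, both higher. No gene passed in the lists of oligodendrocyte precursors, endothelium, meningeal fibroblasts, neurons, ependyma and choroid plexus, or blood, where 1, 1, 0, 1, 0 and 0 genes had an unadjusted p under 0.05 and 0 passed with DESeq2. In whole sections the log2 fold changes for old against young of their most abundant genes were 0.0017 for Cspg5, 0.04 for Olig1, 0.19 for Ly6c1, 0.24 for Cldn5, -0.09 for Igf2, -0.17 for Dcn, 0.41 for Ttr, -0.11 for Kl, -0.11 for Hbb-bs and 0.22 for Hba-a2.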

Additional observations from a re-analysis of the deposited data

Results flagged for a closer look

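The old against young change of Arl4d was larger in white matter than outside it, with a difference of -0.92 on the log2 scale (SE 0.13). The difference itself was tested, as an interaction term in edgeR, and it rests on the young sections that chose the gene.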

How the results depend on the processing

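Counts of the 8 genes that passed were recomputed under each alternative, and leaving out a section that leaves an age with a lone section assumes that it varies like the others. Whole sections, old against young (2 genes), gave 7 with DESeq2, 0 with the slide as a block and 0 to 3 with each section left out. Whole sections, middle against young (1 gene), gave 6 with DESeq2, 3 with equal numbers of spots per region, 3 without a filter on low counts, 0 when thinned to the smallest total, 0 with the slide as a block, 0 without mitochondrial and haemoglobin genes and 0 to 5 with each section left out. With the replicate block it gave 2, and the replicate block moved no other count of passing genes by over 1.5 times. The replicate numbers coincide with the slide for middle and old sections, where the block left the count at 0, but not for young sections, which share 1 slide. Deviations of same-numbered sections correlated at 0.02 (young and middle), 0.13 (young and old) and 0.24 (middle and old). White matter gave 3 to 7 for old against young (6 genes) and 1 to 7 for middle against young (5 genes) with each section left out. The interaction (1 gene) gave 2 with DESeq2, 2 at a clustering resolution of 1.2 and 1 to 2 with each section left out. Pairs of gene and region (14) gave 33 without a filter and 10 to 23 with each section left out. Old against middle in whole sections gave 0 throughout. Fkbp5 changed sign for middle against young in whole sections without young section 2 (0.033; range with each section left out -0.15 to 0.033). In white matter it did so for old against young at resolution 1.2 (-0.018) and without young section 1 (-0.023; range -0.023 to 0.52), and for middle against young at resolution 1.2 (-0.15), without middle section 2 (-0.23) and without young section 1 (-0.11; range -0.23 to 0.45). The interaction changed sign for Tsc22d3 without old section 1 (0.012; range -0.20 to 0.012) and for Tmem252 in the myelin-rich spots (0.15) and without old section 1 (0.016; range -1.57 to 0.016). The cause was not tested in any of these. The myelin-rich level of Cdkn1a did not pass when thinned (-0.33), nor that of Tmem252 in the 5% most myelin-rich spots (0.51). Depth limits Tmem252 (4 to 48 UMIs per section), Fkbp5 (18 to 30) and Cdkn1a (19 to 68) most in white matter.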
